A study of Drosophila melanogaster with 6 samples.

Results

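The cuticle protein genes of the fruit fly were described in RNA from adult heads and compared between flies fed with normal diet (ND) and flies fed with high-fat diet (HFD). The members are all genes whose FlyBase symbol starts with Cpr, Lcp or Edg and a digit, with Twdl or with Ccp84A, or is Pcp. The rule used names and no measured value, and it took 120 of the 11922 gene identifiers in the data. They comprised 70 Cpr genes, 24 Tweedle genes, 15 Lcp genes, 7 Ccp84A genes, 3 Edg genes and Pcp. Another 4 symbols that fit the rule, TwdlU, Twdlbeta, Lcp1Psi and Lcp65APsi, were not analysed here.

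All flies were wild-type (WT) virgin females of the Oregon-R strain, labelled as 5days old. They ate ND, or HFD made by adding coconut oil to ND, for 5 d, and there were 3 samples per diet, each a pool of several flies. Heads with associated tissues were collected, so a change in mRNA per cell and a change in the number of cells of a type cannot be told apart. Nothing in the labels says whether the samples of a diet came from separate cultures, so p-values measure only the spread between these samples. The unit was FPKM, the fragment number divided by transcript length and by the mapped total, which allows levels of different genes to be compared.

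Insect cuticle is an extracellular layer of chitin fibres and proteins that epidermal cells secrete, and it is rebuilt at each moult under the control of the steroid hormone ecdysone. Most Cpr, Lcp, Ccp84A and Pcp proteins carry the Rebers and Riddiford domain, which binds chitin. Tweedle proteins form a separate structural family, named after a mutation that shortens and thickens the larva. Lcp stands for larval cuticle protein, Pcp for pupal cuticle protein, and Edg for ecdysone-dependent gene. In the adult head such proteins build the outer shell and also the corneal lenses of the compound eye, for which Cpr72Ec, Cpr66D and the non-member retinin are known components.

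Facts of the whole series bear on what follows. Depth, estimated from the steps between low FPKM values, was 5.3 to 11.77 M fragments per sample. ND replicate 3 stood apart from the rest, with correlations over all tested genes of 0.842 to 0.920 with the other 5 samples. The summed level of 29 midgut and digestion genes was 74.5 FPKM in ND replicate 3, 7870 FPKM in HFD replicate 2, and 17471 to 27001 FPKM in the other samples. In ND replicate 3, 16 of these 29 genes were listed at 0, and the summed level of 5 heat shock genes was 141 FPKM against 18.5 to 22.3 FPKM elsewhere. Photoreceptor mRNA was abundant in every sample, with a summed level of 7 genes from 20971 to 29859 FPKM. Ovary markers were at most 0.334 FPKM in sum, and Cp38, osk and vas were listed at 0 throughout. Of 5 fat body markers found, 4 were tested and 3 did not overlap between the diets, beside 12.6% of all genes tested. These 3 were the storage protein gene Lsp2 and the yolk protein genes Yp2 and Yp3. Lsp2 was at 183 to 571 FPKM in ND-fed and 63.0 to 125 FPKM in HFD-fed flies. Yp2 and Yp3 were higher in HFD-fed flies. Yp1 overlapped, with 14301 to 17336 FPKM in ND-fed and 15082 to 17903 FPKM in HFD-fed flies. Of the 4 tested, none passed, with a lowest adjusted p of 0.473. The part of the fat body markers in the members' differences was not tested. Across the 37 tested cuticle protein genes, ND replicate 3 correlated at 0.950 to 0.980 with the other samples. Pairs without it were at 0.9564 to 0.9905. Its correlations with the 3 HFD samples, 0.9501 to 0.9545, were the lowest of all pairs. These values are a description over genes that share their libraries.

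Few cuticle protein genes were expressed in adult heads. Averaged over all samples, a level of 0.5 FPKM or more was reached by 37 of the 120 members, or 30.8%, while 8362 of all 11922 genes, or 70.1%, reached it. Only these 37 entered the tests. Another 37 members had a mean above 0 but under 0.5 FPKM, and their highest single value was 1.15 FPKM. The remaining 46 members, or 38.3%, were listed at 0 in all 6 samples, against 16.6% of all genes. A value listed at 0 may be a failed estimate. Of 84 ribosomal protein genes, 3 were also listed at 0 throughout, and whether these 3 are used in the head was not examined.

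The subfamilies differed in how many members reached 0.5 FPKM. Among Cpr genes 27 of 70 did so, among Lcp genes 5 of 15, among Tweedle genes 3 of 24 and among Ccp84A genes 0 of 7. Pcp reached it, as did Edg91, but neither Edg78E nor Edg84A. Apart from TwdlG, the 17 members with means of 5 FPKM or more were Cpr genes, and so were the 9 members with means of 10 FPKM or more. Of 19 Tweedle genes on chromosome arm 3R, 9 were listed at 0 in every sample.

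Copied genes limit what can be said of some members, because only uniquely mapped reads were kept. The symbols of 9 members mark them as numbered copies, namely Lcp65Ab1 and Lcp65Ab2, Cpr65Ax1 and Cpr65Ax2, Cpr67Fa1 and Cpr67Fa2, and Lcp65Ag1 to Lcp65Ag3. Of these, 6 were listed at 0 in every sample. How much of this came from reads that map to more than 1 copy was not tested.

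Cpr65Au had the highest level of all members. It lies at 3L 6131242 to 6132109 on the minus strand in the BDGP6 annotation, the annotation used for all positions here. Its level was 350.3, 338 and 433 FPKM in ND replicates 1 to 3 and 383, 439 and 437 FPKM in HFD replicates 1 to 3. With a mean of 397 FPKM it ranked 196th of 11922 genes, and the diets overlapped. An antisense gene, asRNA:CR46005, overlaps its exons on the opposite strand and was not analysed here. Because strand-specific counting is not stated, reads of the pair cannot be told apart.

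Cpr67B, at 3L 9404797 to 9406174, was second. Its level was 167, 149 and 160.3 FPKM in ND-fed flies and 184, 208 and 184 FPKM in HFD-fed flies, so that every HFD sample lay above every ND sample. Cpr72Ec, the corneal lens protein, came next and lies at 3L 16365894 to 16367340. It was at 138, 123 and 147 FPKM in ND-fed flies and at 159, 175 and 239 FPKM in HFD-fed flies, again without overlap. These 3 genes together made up 65.2% to 69.5% of the summed FPKM of all members in each sample.

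The next 6 members had means between 14.0 and 72.7 FPKM. Cpr49Ae, on arm 2R, was at 75.6, 53.0 and 75.0 FPKM in ND-fed flies and at 68.4, 67.7 and 96.4 FPKM in HFD-fed flies. Its neighbour Cpr49Ag was at 56.7, 58.2 and 79.8 FPKM and at 69.4, 76.6 and 55.5 FPKM. The order of these neighbours is not resolved, since their ranges over samples overlap. Cpr57A, also on 2R, was at 35.4, 38.0 and 42.3 FPKM in ND-fed flies and at 35.4, 40.7 and 44.7 FPKM in HFD-fed flies. Cpr47Ee was at 34.8, 28.2 and 36.2 FPKM in ND-fed flies and at 40.6, 46.8 and 45.3 FPKM in HFD-fed flies. The levels of Cpr57A and Cpr47Ee overlap as well, while both lay below every value of Cpr49Ae and Cpr49Ag.

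Cpr62Bb, at 3L 1832636 to 1835164, was at 16.7, 17.4 and 24.2 FPKM in ND-fed flies and at 18.0, 21.4 and 15.5 FPKM in HFD-fed flies. Cpr11B, at X 12553124 to 12554235, was at 15.8, 15.0 and 27.3 FPKM in ND-fed flies and at 10.5, 9.62 and 5.77 FPKM in HFD-fed flies. It was the only member above 10 FPKM whose HFD samples all lay below its ND samples. The second corneal lens member, Cpr66D, varied within each diet, with 1.08, 1.35 and 5.03 FPKM in ND-fed flies and 3.02, 1.41 and 5.73 FPKM in HFD-fed flies. Retinin, which is no member and is another lens component, was at 1360 to 1645 FPKM in the 6 samples.

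**Figure D1:**
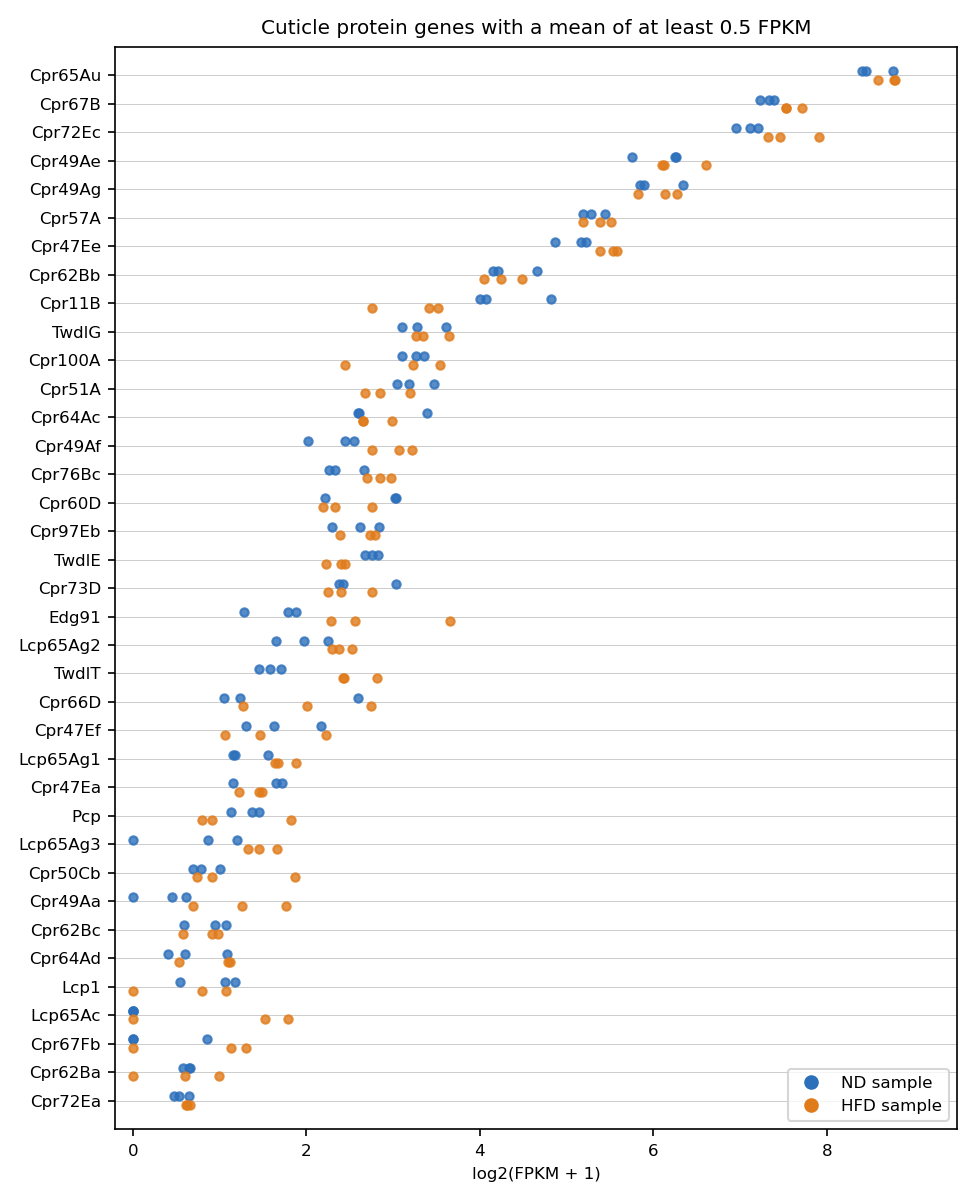
Level of the 37 cuticle protein genes whose mean reached 0.5 FPKM, ordered by their mean, as log2(FPKM + 1). Each point is 1 sample, blue for the 3 ND samples and orange for the 3 HFD samples. Cpr65Au, Cpr67B and Cpr72Ec stand above all other members, and for Cpr11B all orange points lie left of the blue ones.

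Members with near-threshold levels were the following. Just above 0.5 FPKM, Cpr62Ba had a mean of 0.524 FPKM and Cpr72Ea of 0.509 FPKM. Just below, Cpr78Cc had a mean of 0.459 FPKM and Cpr78E of 0.454 FPKM. Cpr78E was listed at 0 in ND replicate 1 and in HFD replicates 1 and 2, and was at 0.779, 0.848 and 1.10 FPKM in the other samples. Edg78E, induced by ecdysone in imaginal discs before pupation, was at 1.15 FPKM in ND replicate 3 and at most 0.426 FPKM elsewhere. These 5 genes rest on few fragments, an estimated 0 to 11 per sample, and their levels give no order.

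Many members sit side by side in the genome, and within most such groups a single gene or a pair held nearly all of the mRNA. At 65A on 3L, 17 members lie within 31.2 kb, and Cpr65Au made up 98.1% of their summed mean FPKM while 10 of the 17 were listed at 0 in every sample. The gene next to it, Lcp65Ag3, lies less than 1 kb away and had a mean of 1.25 FPKM. Of the 3 members at 72E, Cpr72Ec made up 99.4%. At 47E, with 7 members in 26.7 kb, Cpr47Ee made up 90.2%.

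The same held in smaller groups. Cpr62Bb made up 93.4% at 62B, Cpr76Bc 93.5% at 76B, and Cpr64Ac 87.6% at 64A, where each group has 3 or 4 members. At 49A, with 8 members in 38.5 kb, the mRNA was split between Cpr49Ae with 49.9% and Cpr49Ag with 45.3%, which lie close to each other with Cpr49Af between them. The 84A group, whose 7 members lie within 18.2 kb in the Antennapedia complex region, had no member above a mean of 0.199 FPKM, and 4 of the 7 were listed at 0.

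**Figure D2:**
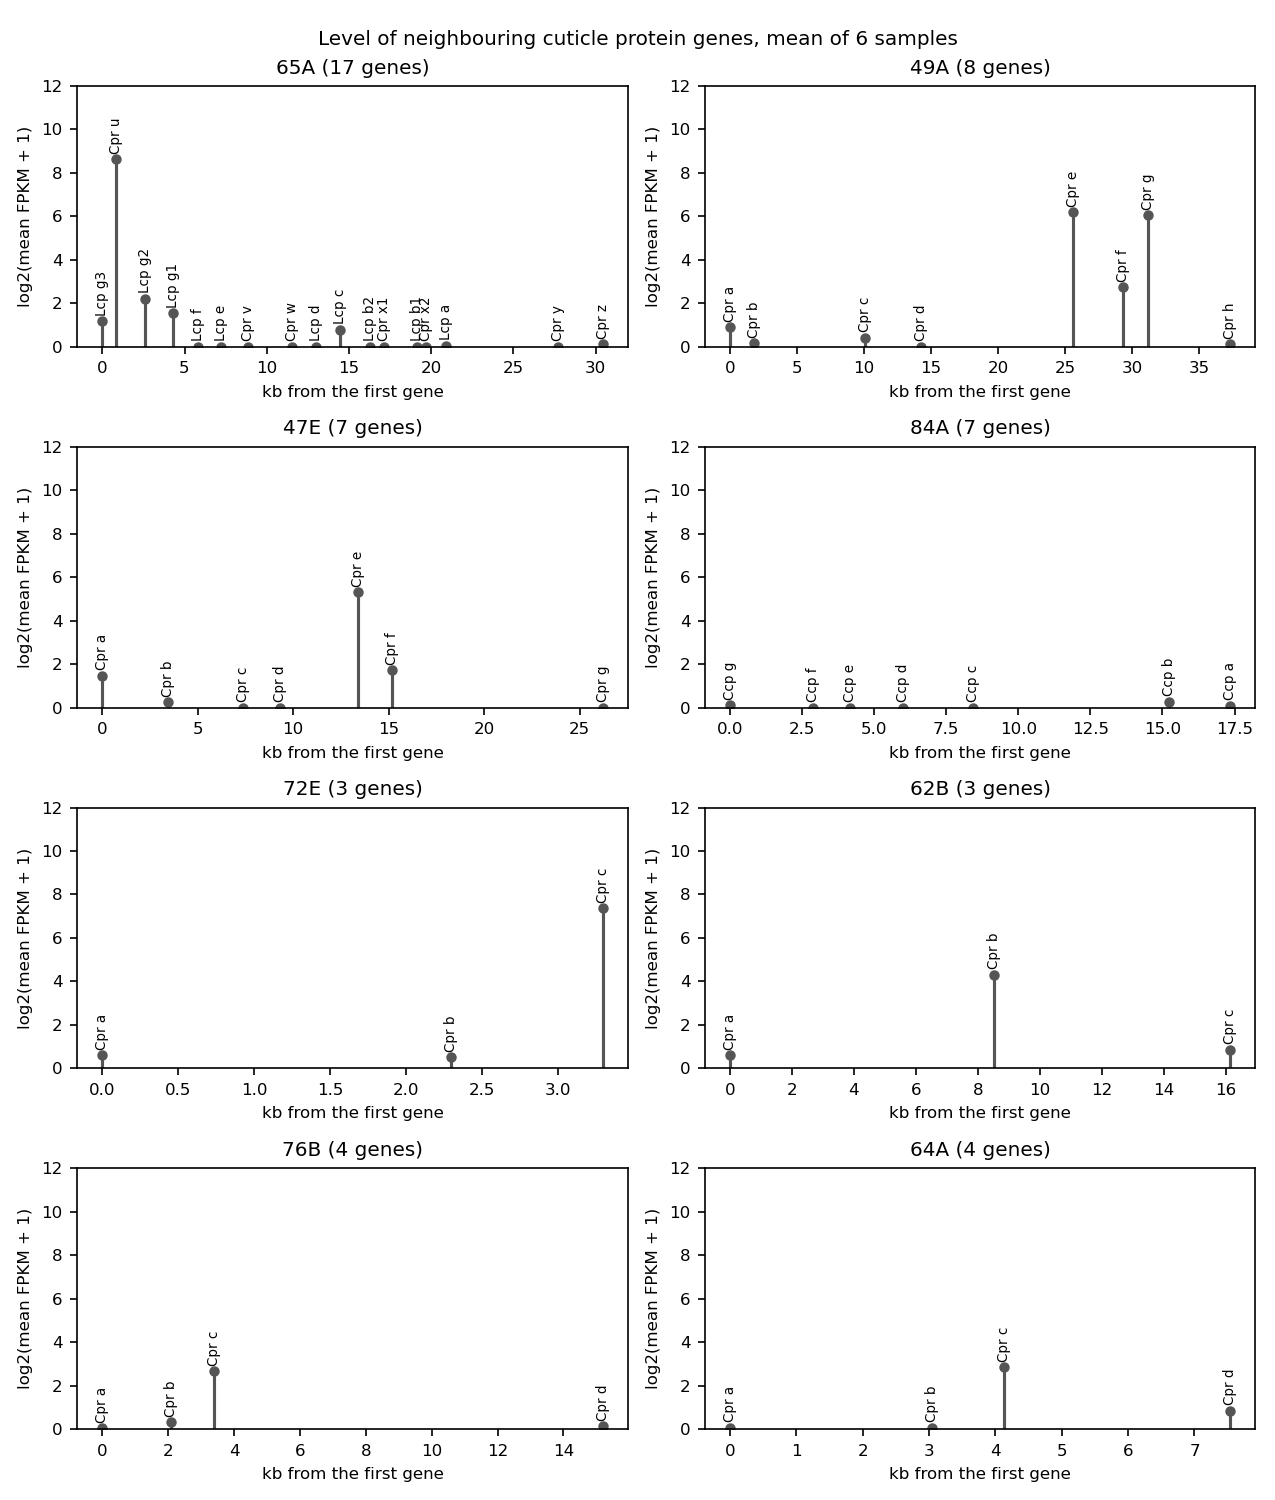
Mean level over the 6 samples, as log2(mean FPKM + 1), of neighbouring cuticle protein genes in 8 groups named by their cytological band. The horizontal axis gives the distance in kb of each gene's lower coordinate, on either strand, from that of the first gene of its group. Labels shorten the symbols by leaving out the band. A single gene stands out at 65A, 47E, 72E, 62B, 76B and 64A, 2 genes stand out at 49A, and none at 84A.

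HFD was compared with ND by limma on log2(FPKM + 1) for all 8362 genes whose mean reached 0.5 FPKM, and all differences below are HFD minus ND on that scale, which understates the change of low genes. At an adjusted p under 0.05, 4 of all genes tested passed (0.0478%, with 0.0239% higher and 0.0239% lower), and 0 of the 37 tested cuticle protein genes did. The lowest adjusted p among members was 0.288, for TwdlT. At an unadjusted p under 0.05, 12 members passed, 10 with higher and 2 with lower levels in HFD-fed flies. This is 27.0% and 5.41% of the 37, beside 3.11% higher, 3.6% lower and 6.71% in all among the genes tested. By sign, 23 of the 37 were higher, or 62.2%, and 14 lower, beside 42.8% and 57.2% of all genes tested. The median difference was 0.09 over the 37 members and -0.03 over all genes tested. Lcp65Ac, Cpr67Fb, Cpr49Aa and Cpr72Ea, with ND means of 0, 0.269, 0.300 and 0.469 FPKM, reached the filter only through HFD. No tested member reached it only through ND. The filter thus favoured the direction of these genes, which adds no support to the counts or the median. Cpr49Aa is also among the 10 higher members.

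The diets did not overlap for 13 members (35.1%, beside 12.6% of all genes tested), 11 higher and 2 lower in HFD-fed flies. These are 29.7% and 5.41% of the 37, beside 4.54% and 8.07% of all genes tested. An exact permutation test of each of them, two-sided over the 20 assignments of samples, gave p = 0.1. This is the smallest value that 3 against 3 samples allow. The lack of overlap fixes it in advance, so it adds no support. A separate call used the thresholds of the study, a limma p under 0.05 without adjustment and mean FPKM differing by a factor past 2. By this call 3 members were higher (Cpr49Aa, Edg91 and TwdlT) and 1 was lower (Cpr11B). The shares were 8.11% and 2.7% of the 37, beside 0.682% and 0.431% of all genes tested, or 1.11% in all. Lcp65Ag3 did not overlap and had a ratio of 2.57, but its unadjusted limma p was 0.0534. Members share libraries and genome neighbourhoods, so these counts are descriptions.

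Leaving out ND replicate 3, the sample with almost no digestive mRNA, again gave 10 higher and 2 lower members at an unadjusted p under 0.05. Of the 10, 9 were shared with the fit of all samples, Edg91 was replaced by Cpr65Au, and the shares over all genes tested rose to 6.85% and 5.65%. The median difference of the members was then 0.23, beside 0.01 over all genes tested. Leaving out HFD replicate 2 as well, an alternative chosen after seeing the data, gave 10 and 2 members, 7 and 2 of them shared, beside 6.07% and 6.35% of all genes tested. The count of higher members fell to 4 without ND replicate 2, 5 without HFD replicate 3 and 6 without ND replicate 1, where the shares higher over all genes tested were 2.17%, 2.9% and 2.07%. Only Cpr47Ee, Cpr49Af and TwdlT among the higher members, and Cpr11B and TwdlE among the lower, stayed under an unadjusted p of 0.05 whichever of the 6 samples was left out.

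**Figure D3:**
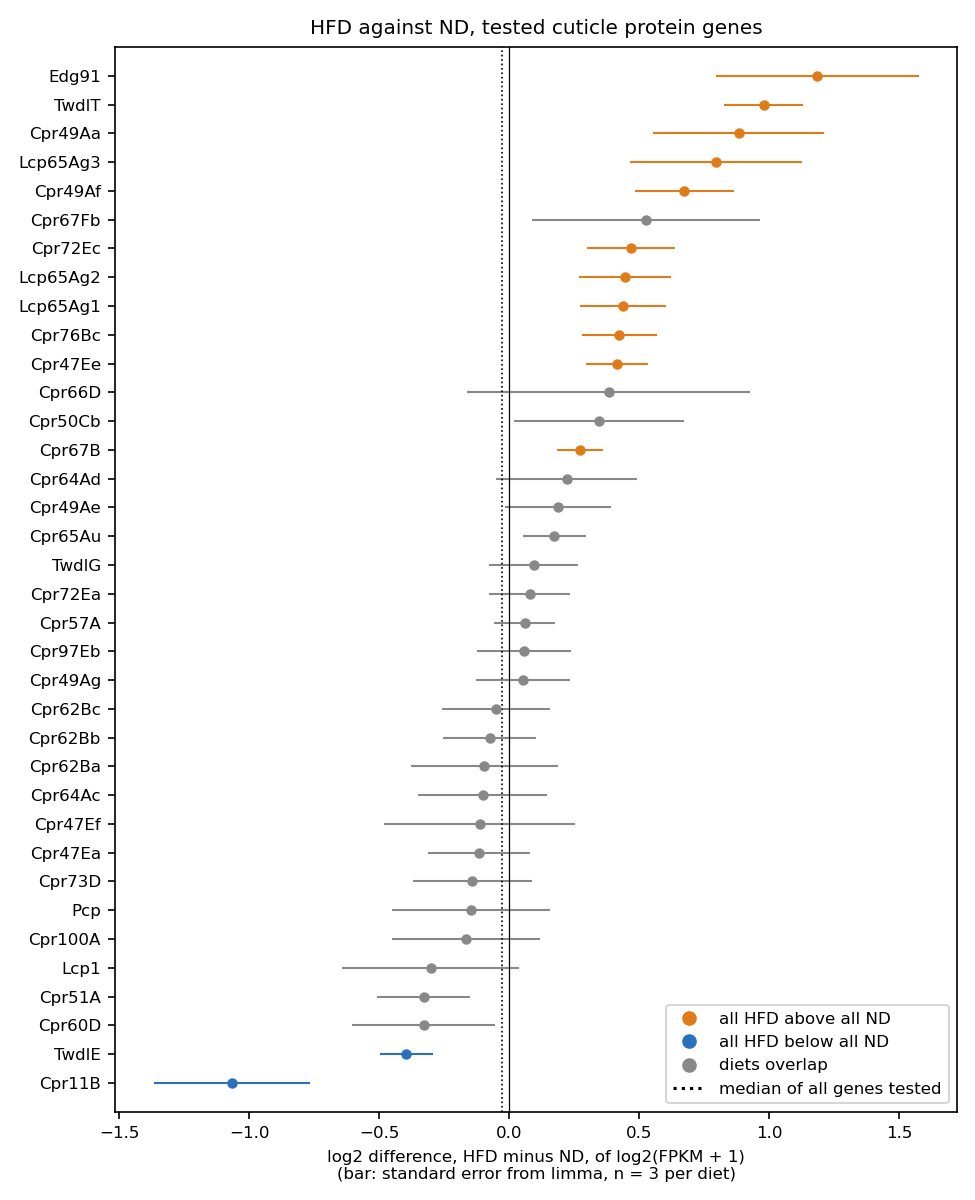
Difference between the diets, HFD minus ND on the log2(FPKM + 1) scale, for 36 of the 37 tested cuticle protein genes, with the standard error from limma (n = 3 per diet). Lcp65Ac, listed at 0 in all ND samples, is left out; orange marks genes with all HFD samples above all ND samples, blue the opposite, and the dotted line the median of all genes tested, -0.03. Edg91 at 1.19 and Cpr11B at -1.07 are the extremes, and no gene passed an adjusted p of 0.05.

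TwdlT, a Tweedle protein gene at 3R 27049220 to 27051004, had the lowest p of all members. Its level was 1.99, 1.73 and 2.26 FPKM in ND-fed flies and 4.40, 4.36 and 6.06 FPKM in HFD-fed flies. Every HFD sample was above every ND sample. The ratio of mean FPKM was 2.48 and the difference was 0.98 with a standard error of 0.15 (adjusted p = 0.288). An estimated 23 to 115 fragments per sample lie behind these values. TwdlT is also among genes that the study listed from these same samples, so its direction is not independent evidence.

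Besides TwdlT, 2 Tweedle genes were tested. TwdlE, at 2L 7857957 to 7860839, was at 6.11, 5.42 and 5.77 FPKM in ND-fed flies and at 3.69, 4.47 and 4.28 FPKM in HFD-fed flies. All HFD samples were lower, with a difference of -0.40 and a standard error of 0.10 (adjusted p = 0.475). Its exons overlap those of lectin-28C on the opposite strand, whose level was 56.0 to 98.7 FPKM, and without stated strand the reads of these genes cannot be told apart. TwdlG, with a mean of 9.46 FPKM, overlapped between the diets.

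Among the abundant Cpr genes 4 passed an unadjusted p of 0.05. Cpr47Ee, whose values are given above, had a difference of 0.41 with a standard error of 0.12 (adjusted p = 0.546). For Cpr72Ec the difference was 0.47 with a standard error of 0.17 (adjusted p = 0.663), and without HFD replicate 3, its highest sample, it was 0.30. Cpr67B differed by 0.27 with a standard error of 0.09 (adjusted p = 0.631). Cpr11B differed by -1.07 with a standard error of 0.30 (adjusted p = 0.532), a ratio of mean FPKM of 0.445, and by -0.81 without ND replicate 3, its highest sample. The other 5 members above 10 FPKM (Cpr65Au, Cpr49Ae, Cpr49Ag, Cpr57A and Cpr62Bb) overlapped between the diets, with differences from -0.08 to 0.19. The latter was Cpr49Ae, which differed by 0.0208 without ND replicate 2 and by 0.0221 without HFD replicate 3.

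Cpr49Af lies between the more abundant Cpr49Ae and Cpr49Ag on 2R. It was at 3.06, 4.47 and 4.87 FPKM in ND-fed flies and at 7.37, 8.32 and 5.78 FPKM in HFD-fed flies. The difference was 0.67 with a standard error of 0.19 (adjusted p = 0.533), while its neighbours overlapped between the diets. Cpr49Aa, at the other end of the same group, was at 0.367, 0 and 0.532 FPKM in ND-fed flies and at 0.613, 1.39 and 2.40 FPKM in HFD-fed flies. The estimate behind these values is 0 to 17 fragments per sample, and its unadjusted p rose above 0.05 in 4 of the 6 fits that left out a sample.

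Cpr76Bc, at 3L 19520945 to 19527272, was at 3.78, 4.03 and 5.34 FPKM in ND-fed flies and at 6.20, 5.52 and 6.85 FPKM in HFD-fed flies. The samples did not overlap, although ND replicate 3 and HFD replicate 2 lay close together. The difference was 0.42 with a standard error of 0.14 (adjusted p = 0.645). It was 0.55 without ND replicate 3 and 0.34 without ND replicate 1, the highest and lowest values when a sample was left out. Its unadjusted p from limma was under 0.05 in only 2 of these 6 fits.

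Edg91, at 3R 17610856 to 17611511, encodes a glycine-rich cuticle protein and is known as an ecdysone-dependent gene of imaginal discs. It was at 2.68, 2.47 and 1.42 FPKM in ND-fed flies and at 4.90, 11.6 and 3.88 FPKM in HFD-fed flies. No sample overlapped, but HFD replicate 2 was far above the other HFD samples. The difference was 1.19 with a standard error of 0.39 (adjusted p = 0.644). Without ND replicate 3 it was 0.999 and its unadjusted p was above 0.05, and the lowest value when a sample was left out was 0.77.

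The 3 neighbouring larval cuticle genes Lcp65Ag1, Lcp65Ag2 and Lcp65Ag3 on 3L are named as copies of each other. Only uniquely mapped reads were kept, so reads that fit more than 1 copy would be missing from their levels. Lcp65Ag2 was at 2.13, 2.94 and 3.76 FPKM in ND-fed flies and at 3.92, 4.77 and 4.21 FPKM in HFD-fed flies. Lcp65Ag1 was at 1.26, 1.22 and 1.95 FPKM and at 2.69, 2.20 and 2.11 FPKM. Lcp65Ag3 was at 1.29, 0.817 and 0 FPKM and at 1.52, 1.74 and 2.16 FPKM. Each of them had all HFD samples above all ND samples, on an estimated 0 to 27 fragments. The antisense gene asRNA:CR46005 also overlaps exons of Lcp65Ag3 on the opposite strand, so reads of that pair cannot be told apart.

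Summed over the 3 copies, the level was 4.68, 4.98 and 5.70 FPKM in ND-fed flies and 8.13, 8.70 and 8.48 FPKM in HFD-fed flies. The sum was formed after the single values were seen and was not tested. The single differences were 0.44 for Lcp65Ag2 (adjusted p = 0.725), 0.44 for Lcp65Ag1 (adjusted p = 0.690) and 0.80 for Lcp65Ag3 (adjusted p = 0.736). Lcp65Ag3 is the copy whose ND replicate 3 value fell to 0, and without that sample its difference was 0.45. Lcp65Ag1 and Lcp65Ag2 passed an unadjusted p of 0.05 in only 1 of the 6 fits that left out a sample, the fit without ND replicate 3.

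Other low members had values in some samples only. Lcp65Ac, a larval cuticle gene of the same group, was listed at 0 in all ND samples and in HFD replicate 2, and was at 2.45 and 1.87 FPKM in HFD replicates 1 and 3. Cpr67Fb was listed at 0 in ND replicates 1 and 3 and in HFD replicate 2, and was at 0.807, 1.19 and 1.47 FPKM in the others. HFD replicate 2 was the least deeply sequenced sample by the estimate above. Pcp, the pupal cuticle gene, was at 1.60, 1.19 and 1.75 FPKM in ND-fed flies and at 0.736, 2.53 and 0.883 FPKM in HFD-fed flies, so the diets overlapped.

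**Figure D4:**
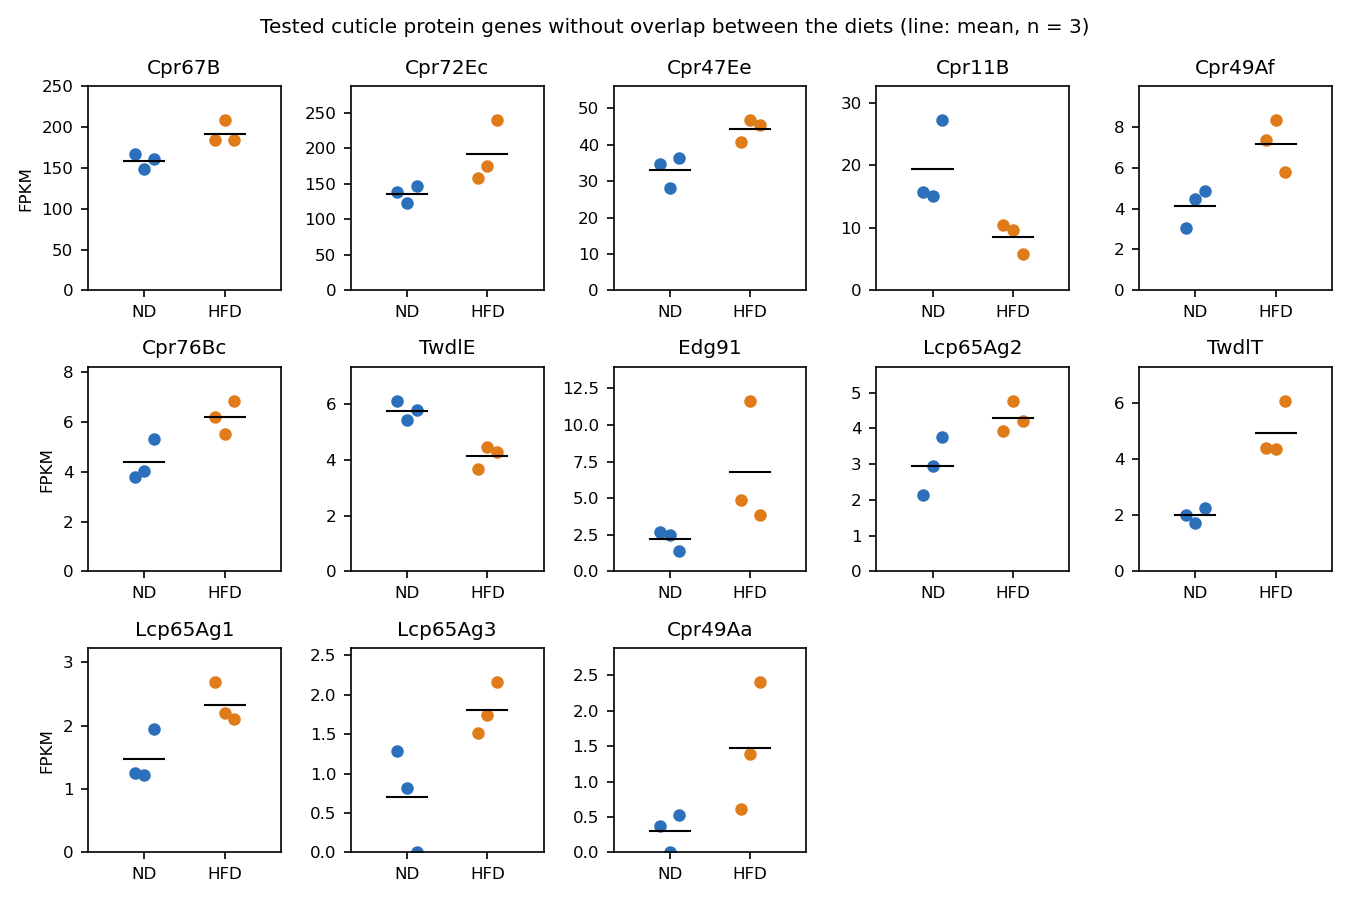
FPKM per sample of the 13 tested cuticle protein genes whose ND (blue) and HFD (orange) samples did not overlap, each panel from 0, with the mean of 3 samples as a line. In 11 panels the HFD samples lie above and in 2, Cpr11B and TwdlE, below. HFD replicate 2 of Edg91, at 11.6 FPKM, lies far above the other samples of that gene.

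Summed, the 120 members reached 973, 898 and 1134 FPKM in ND-fed flies and 1061, 1190 and 1237 FPKM in HFD-fed flies. The diets overlapped, since ND replicate 3 lay above HFD replicate 1. The means were 1002 ± 121 FPKM and 1163 ± 90.9 FPKM (SD, n = 3 each), and the share of all FPKM was 0.176% to 0.247%. The total FPKM was 460919 in ND replicate 3 and 483596 to 510141 in the other samples. ND replicate 3 was the highest of the 6 samples for 38.7% of all genes tested and for 9 of the 37 members, while HFD replicate 3 was the highest for 7.1% of all genes tested and for 12 members. The part of the digestive mRNA in the members' differences was not tested beyond leaving that sample out.

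Other genes of cuticle biology were taken from lists by their role. Of the 12 genes of chitin synthesis and assembly found, 11 were tested and 0 passed an adjusted or unadjusted p of 0.05. The highest were mmy, which makes the sugar nucleotide for chitin, at 33.0 to 55.8 FPKM, and the chitin deacetylase Cda9. Cda9 was at 43.8, 46.9 and 1.13 FPKM in ND-fed flies and at 29.2, 13.4 and 24.2 FPKM in HFD-fed flies. Chs2, a chitin synthase known from the gut, was at 17.7, 20.9 and 0.176 FPKM and at 15.2, 4.64 and 14.3 FPKM. Both were lowest in ND replicate 3, as were 23 of the 29 midgut and digestion genes. The epidermal chitin synthase kkv was at 0.0954 to 0.373 FPKM and was under the filter.

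**Figure D5:**
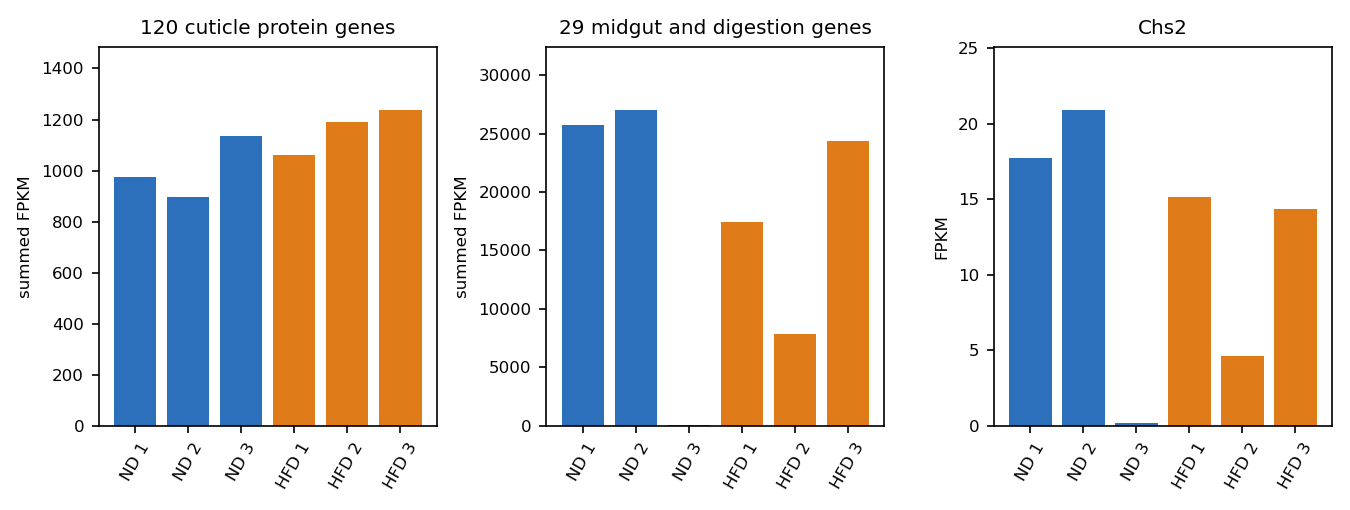
Summed FPKM of the 120 cuticle protein genes, summed FPKM of 29 midgut and digestion genes, and FPKM of the chitin synthase Chs2 in each of the 6 samples (blue ND, orange HFD; bars are single samples). The midgut sum and Chs2 are near 0 in ND replicate 3, at 74.5 and 0.176 FPKM, while the cuticle protein sum there is 1134 FPKM.

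Chitinases, which break chitin down, gave 0 of 8 tested genes at an unadjusted p under 0.05. The most abundant, Cht8, was at 83.98, 86.4 and 0.269 FPKM in ND-fed flies and at 56.2, 36.1 and 59.1 FPKM in HFD-fed flies, and Cht9 was likewise lowest in ND replicate 3, at 0.983 FPKM. Of the obstructor chitin-binding proteins 5 of 9 were tested and 0 passed, with obst-E at 41.1 to 54.6 FPKM and Gasp at 28.4 to 36.2 FPKM the highest. Among 11 tested genes of ecdysone response and cuticle regulation 0 passed, and the highest were the nuclear receptors Eip75B, at 38.8 to 49.3 FPKM, and usp, the partner of the ecdysone receptor, at 26.8 to 29.7 FPKM. In that list Blimp-1 was at 23.5 to 25.1 FPKM in ND-fed and 19.6 to 22.6 FPKM in HFD-fed flies. For ftz-f1 the levels were 18.7 to 19.2 and 13.9 to 18.0 FPKM. Both were lower in HFD-fed flies without overlap. They are 2 of the 11 tested, beside 8.07% of all genes tested that were lower without overlap. None of these lists held a gene with an adjusted p under 0.05.

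Of 6 tested structural cuticle genes outside the rule, 1 passed an unadjusted p of 0.05. This was the adult cuticle gene Acp1, at 4.73, 4.41 and 6.01 FPKM in ND-fed flies and at 9.04, 9.22 and 13.1 FPKM in HFD-fed flies, without overlap. Its difference was 0.91 with a standard error of 0.18 (adjusted p = 0.425). Retinin and Vajk2, the highest of that list, overlapped between the diets. Of 11 tested genes of tanning and pigmentation, 1 passed. Pu, the enzyme of the first step of pteridine synthesis, was at 123, 113 and 157 FPKM in ND-fed flies and at 155, 180.2 and 171 FPKM in HFD-fed flies. Its difference was 0.38 with a standard error of 0.14 (adjusted p = 0.690), and ND replicate 3 overlapped the HFD samples. The enzyme t, which acts in cuticle tanning and in histamine recycling of the eye, was at 102 to 155 FPKM and overlapped.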

How the data were processed

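Poly(A) RNA of heads was sequenced on Illumina HiSeq instruments. The submitters' processing notes name HISAT, and the authors kept uniquely mapped reads and deposited FPKM values, 1 per gene row and sample; the series' description calls them RPKM. Genome build, annotation and counting tool are not given in the sources used here. There were 12138 rows and 11922 identifiers, 11794 with a FlyBase symbol, and the first row of an identifier was used. Positions and exon overlaps were taken from the BDGP6 annotation.

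Groups came from the labels. HFD was compared with ND over the 6 samples by limma 3.58.1 in R 4.3.3 (lmFit and moderated variances with a trend) on log2(FPKM + 1) for all 8362 genes whose mean reached 0.5 FPKM, with Benjamini-Hochberg adjustment over all of them. The limma and depth steps were tested on simulated data. The depth estimate used 5673 genes for which the annotation holds 1 transcript, and the steps between their low FPKM values. Only 66.4% to 74.2% of low values lay within 0.15 of whole fragments, where chance gives 30.0%, so no count test was made. Python 3.11.15 with pandas 2.3.3, numpy 2.4.6 and matplotlib 3.10.9 served for tables and figures.

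The members and all lists were chosen with earlier results of these data known. Members were named if their mean was at least 10 FPKM, if their unadjusted p was under 0.05, if they reached 1 FPKM in a sample and ND replicate 3 was 4-fold from the median of the other samples (FPKM + 0.1), if they lay next to the 0.5 FPKM limit, or if the study lists them (TwdlT). Of the other lists the 2 highest genes and those with an unadjusted p under 0.05 were named. Cpr66D, TwdlG, Cpr64Ac, Pcp, Lcp65Ac, Edg84A, the numbered copies, Chs2, kkv, Blimp-1 and ftz-f1 were named outside this rule, after their values were seen. Alternatives were another pseudocount, other filters, 2 other scalings, limma without trend, a replicate block, summed rows and each sample left out.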

Additional observations from a re-analysis of the deposited data

How the results depend on the processing

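No cuticle protein gene passed an adjusted p of 0.05 under any alternative run, and the adjusted p of TwdlT ranged from 0.137 to 0.923. The count of all genes at an adjusted p under 0.05, 4 in the fit of all samples, was 7 under median-ratio scaling, 1 with the replicate block, 12 without both samples that stood apart and 1 to 5 when each sample was left out. The 10 higher and 2 lower members at an unadjusted p under 0.05 became 5 and 1 with a mean of at least 5 FPKM. There 17 members were tested in place of 37, and the shares over all genes tested were 3.4% and 3.83%. With the replicate block the counts were 7 and 3 (2.36% and 2.21%). When each sample was left out they were 4 to 10 and 2 to 3. The shares over all genes tested were then 2.07% to 6.85% and 2.43% to 5.65%. The count of detected members, 37, was 17 at a mean of at least 5 FPKM. It was 28 if each of the 6 samples had to reach 0.5 FPKM, and 47 if any of them did. Whether the replicate numbers pair the samples was not settled. Deviations from the diet means correlated at 0.31, -0.51 and -0.36 for same-numbered samples. ND replicate 3 and HFD replicate 2, the samples lowest in digestive mRNA, correlated at 0.55. Because these 2 samples stood apart, the correlations cannot decide on pairing. The median difference of the members ranged from 0.06 to 0.23 when each sample was left out. Of the 37 tested members, 14 changed sign in some fit that left out a sample, and 0 of these had an unadjusted p under 0.05 with all samples. Among the genes named by rule they were Cpr49Ag (-0.0448 to 0.211), Cpr57A (-0.0172 to 0.146), Cpr62Bb (-0.188 to 0.0833) and Cpr62Ba (-0.133 to 0.170). Cpr62Ba was also at 0.182 without both samples that stood apart, and Cpr72Ea was at -0.0163 under quantile normalization. The causes of these shifts were not tested. Values under about 1 FPKM rest on few fragments and limit what can be said of low members.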
